A study of Homo sapiens with 6 samples.

Results

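The genes described here encode matrix metalloproteinases (MMP1, MMP2, MMP3 and MMP14), tissue inhibitors of metalloproteinases (TIMP1, TIMP2 and TIMP3), urokinase (PLAU) and the urokinase receptor (PLAUR). They were chosen by name, as the rows of the count table whose gene symbol equals one of these 9, and all 9 were found among 59653 genes. RNA was sequenced from SK-OV3, a human ovarian cancer cell line of wild-type genotype by its label, 48 h after transfection with a pool of siRNAs against the lncRNA PVT1 (siPVT1) or with a non-targeting siRNA pool (siControl), in 3 libraries per group. The study states that this line does not express p53. The model is 1 cell line and 1 siRNA pool, so that lower PVT1 and any other effect of that pool cannot be told apart. The labels do not say whether libraries of a group came from separate cultures, and p-values measure the spread between these libraries, which may be technical.

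Matrix metalloproteinases are zinc endopeptidases, made as inactive proenzymes, that cut collagens and other proteins of the matrix and cell surface, and TIMPs block them by binding the active site. Urokinase binds its receptor at the cell surface and turns plasminogen into plasmin, which dissolves fibrin and activates several metalloproteinase proenzymes. Both systems are studied in ovarian cancer for their part in the spread of tumor cells over the peritoneum. RNA levels do not measure secretion or activation of these enzymes.

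PVT1 was at 106, 131 and 108 CPM (counts scaled to library size by the TMM method) in siControl replicates 1, 2 and 3 and at 75.5, 67.8 and 66.3 CPM in the siPVT1 replicates, a log2 fold change of −0.72 (SE 0.097, adjusted p = 0.000342, quasi-likelihood test of edgeR with Benjamini-Hochberg adjustment over all genes tested). Library totals ranged from 28383171 to 35059576 counts. Of 6 epithelial and SK-OV3 markers 4 rose (KRT8, KRT18, KRT19 and PAX8) and ERBB2 fell, and EPCAM, at 44 to 126 counts, did not pass. Their summed level was 641 to 712 CPM in siControl and 898 to 998 CPM in siPVT1, and KRT19, with a fold of 4.91, passed both thresholds. Of all genes tested 57.9% had an adjusted p under 0.05, and 21.5% passed both thresholds, 11.8% as higher. Of 3 endothelial markers all 3 rose in siPVT1 past both thresholds (PECAM1 with a fold of 7.93, CDH5 of 4.66 and VWF of 3.16). Their summed level was 65.7 to 66.6 CPM in siControl and 277 to 350 CPM in siPVT1, most of it CDH5. In siControl PECAM1 had 36 to 42 counts per library and VWF 17 to 31. Of 6 fibroblast markers COL1A1 (a fold of 4.45), PDGFRB (3.51) and PDGFRA rose past both thresholds, with a summed level of 6.97 to 7.37 CPM in siControl and 25.9 to 27.6 CPM in siPVT1. LUM went the other way but did not pass (log2 fold change −1.15, adjusted p = 0.132). It had 10 to 24 counts per siControl library and 2 to 11 per siPVT1 library. COL3A1 and DCN, also on that list, had 3 counts or fewer in each library, and the call of PDGFRA, with at most 31 counts, was lost with scaling by total counts (adjusted p = 0.063) and without any 1 of 5 libraries (adjusted p = 0.0548 to 0.126). Of 4 leukocyte markers CD3E was at 0 and PTPRC had at most 2 counts, and the summed level was 17.8 to 19.8 CPM in siControl and 18.7 to 28.7 CPM in siPVT1. Most of this sum was CD68, at 17.6 to 19.5 CPM in siControl and 18.7 to 28.6 CPM in siPVT1. CD68 did not pass (log2 fold change 0.30, adjusted p = 0.111), except without siPVT1 replicate 3 (0.42, adjusted p = 0.00515). CD14 had 6 to 10 counts in siControl, through which alone it passed the filter, and 2 to 3 in siPVT1 (adjusted p = 0.0241), and its call was lost in 5 of 8 alternatives, with DESeq2 (adjusted p = 0.145), no filter (adjusted p = 0.0816), a replicate block (adjusted p = 0.0623) and without siPVT1 replicate 2 or 3 (adjusted p = 0.0632 and 0.0538). The part of these markers in the results that follow was not tested.

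Of the 9 genes, 5 rose in siPVT1 (MMP14, TIMP1, TIMP2, TIMP3 and PLAU), 3 fell (MMP1, MMP3 and PLAUR) and MMP2 did not pass the test, at an adjusted p under 0.05. All 9 had passed the filter on low counts. Of all 19008 genes tested, 57.9% passed this criterion, 29.5% as higher and 28.4% as lower, against 88.9% of the 9 genes. With a second threshold, a log2 fold change of 1 or more in either direction, PLAU (higher) and MMP3 (lower) passed, which is 22.2% of the 9 genes. Over all genes tested 21.5% passed both thresholds, 11.8% as higher and 9.64% as lower, so that the share of the 9 genes lay near the background. The ranges of siControl and siPVT1 did not overlap for 8 of the 9 genes, as for 65.6% of all genes tested. The median log2 fold change was 0.39 for the 9 genes and 0.0014 for all genes tested. Scaling by total counts moved the median of all genes to −0.148, and under it each of the 9 genes kept its direction.

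**Figure D1:**
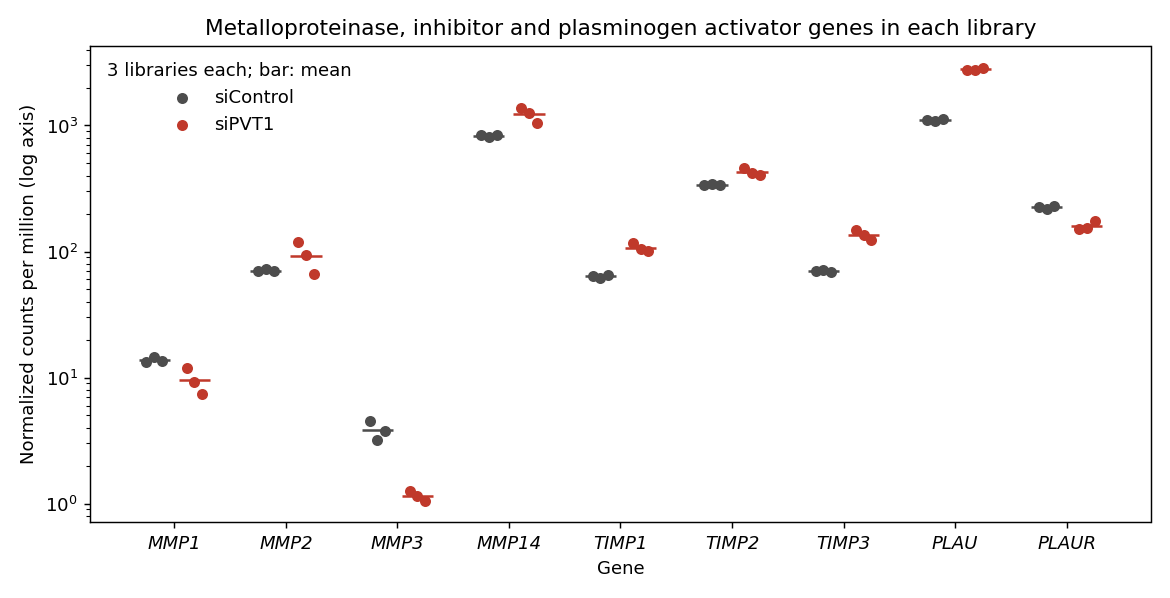
TMM-normalized CPM on a log axis for the 9 genes, with 1 point for each of the 3 siControl and 3 siPVT1 libraries and a bar at each group mean. The groups do not overlap for 8 genes, and for MMP2 siPVT1 replicate 3, at 66.8 CPM, lies below the siControl libraries.

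MMP1, the interstitial collagenase that cuts fibrillar collagen, was at 13.3, 14.4 and 13.4 CPM in siControl and at 11.9, 9.16 and 7.46 CPM in siPVT1 replicates 1, 2 and 3. All siPVT1 libraries were below all siControl libraries, and replicate 1 lay close to them. The means were 13.7 ± 0.627 and 9.52 ± 2.27 CPM (SD, n = 3 each). The log2 fold change was −0.53 (SE 0.158, 95% interval −0.89 to −0.17, adjusted p = 0.0200 from edgeR). This call was lost without siControl replicate 2 (−0.49, adjusted p = 0.0709) and without siPVT1 replicate 2 (−0.52, adjusted p = 0.0655).

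MMP3 encodes stromelysin-1, which degrades proteoglycans and fibronectin and activates other proenzymes. It was at 4.50, 3.21 and 3.74 CPM in siControl and at 1.25, 1.16 and 1.06 CPM in siPVT1, with 99 to 147 and 33 to 35 counts. The groups did not overlap, and the siPVT1 libraries lay close together. The log2 fold change of −1.72 (SE 0.184, 95% interval −2.15 to −1.30, adjusted p = 9.95e-05) was the farthest from 0 among the 9 genes, at 0.303 times the siControl level.

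MMP1 and MMP3 are neighbours on the minus strand of chromosome 11 (GRCh38), at 102789401-102798160 and 102835801-102843609. They lie in a cluster of 9 metalloproteinase genes, and of the other members only MMP10 passed the filter. MMP10, a stromelysin, had 22, 11 and 13 counts in siControl and 4, 13 and 4 in siPVT1 (log2 fold change −0.99, adjusted p = 0.151). Without siPVT1 replicate 2 it passed (−1.83, adjusted p = 0.0201), but there it met the filter on low counts through siControl alone. MMP8, the neutrophil collagenase, had 5, 4 and 7 counts in siControl and 0 in each siPVT1 library, where a count of 0 allows up to 3 counts. MMP7, MMP12 and MMP13 had 3 counts or fewer in each library, and MMP20 and MMP27 were at 0 throughout. MMP1 shares 223 of its 2738 exonic bases with the opposite-strand pseudogene WTAPP1, which had 2 counts in all.

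MMP2 encodes gelatinase A, which cuts type IV collagen of basement membranes. It was at 70.1, 72.2 and 69.6 CPM in siControl and at 118, 93.3 and 66.8 CPM in siPVT1 replicates 1, 2 and 3. The siControl libraries were alike, with a coefficient of variation of 1.98%, while the siPVT1 libraries spread to 27.7% and replicate 3 lay below all siControl libraries. The log2 fold change of 0.39 (SE 0.175, 95% interval −0.011 to 0.79, adjusted p = 0.0869) did not pass the test. It was 0.16 without siPVT1 replicate 1 and 0.57 without siPVT1 replicate 3, where it passed (adjusted p = 0.000275), and with no filter on low counts its adjusted p was 0.023. The gene lies on chromosome 16 at 55389700-55506691, plus strand (GRCh38), and shares 174 of 4706 exonic bases with another transcript model of the same strand.

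MMP14 encodes a membrane-bound metalloproteinase that activates the MMP2 proenzyme at the cell surface, in a complex with TIMP2. It was at 845, 804 and 834 CPM in siControl and at 1368, 1259 and 1039 CPM in siPVT1. All siPVT1 libraries were above all siControl libraries, with replicate 3 the nearest to them, as it was for MMP2. MMP14 thus rose by 0.56 on the log2 scale (SE 0.097, 95% interval 0.34 to 0.79, adjusted p = 0.00134), a fold of 1.48. The gene lies on chromosome 14 at 22836560-22849041, plus strand (GRCh38).

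The 3 inhibitors rose together, and their summed level was 471 to 474 CPM in siControl and 630 to 724 CPM in siPVT1. TIMP1, which inhibits most secreted metalloproteinases, was at 63.8, 61.7 and 65.6 CPM in siControl and at 117, 104 and 100.5 CPM in siPVT1. The groups did not overlap, with a log2 fold change of 0.75 (SE 0.0735, adjusted p = 6.21e-05).

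TIMP2, which also takes part in MMP2 activation, was at 337, 341 and 339.7 CPM in siControl and at 459, 422 and 406 CPM in siPVT1. Its siControl libraries differed by a coefficient of variation of 0.620%, and the log2 fold change of 0.34 (SE 0.0618, adjusted p = 0.00183) was the smallest of those that passed. With scaling by total counts it was 0.19. TIMP2 lies on chromosome 17 at 78852977-78925387, minus strand (GRCh38), and shares 367 of 6209 exonic bases with a lncRNA gene of the opposite strand and 224 with CEP295NL of the same strand.

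TIMP3, which binds to the matrix and also inhibits ADAM proteases, was at 70.05, 71.2 and 68.9 CPM in siControl and at 148, 136 and 124 CPM in siPVT1. The groups did not overlap, and the siPVT1 libraries were at 1.94 times the siControl level. The log2 fold change of 0.95 (SE 0.0746, 95% interval 0.78 to 1.13, adjusted p = 2.06e-05) lay just under the fold threshold, and without siPVT1 replicate 3 it was 1.001 and passed both thresholds.

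TIMP1, on chromosome X at 47582408-47586789, and TIMP3, on chromosome 22 at 32801705-32863041 (both plus strand, GRCh38), each lie whole within a synapsin gene of the opposite strand, SYN1 and SYN3, with which they share no exonic base. SYN1 had 5 to 15 counts per library (log2 fold change 0.13, adjusted p = 0.845), and SYN3 had 5 or fewer and was not tested. These neighbours were chosen by position after their values were seen. RefSeq promoter sequences were matched for 5 of the 9 genes, TIMP1, TIMP3, MMP14, PLAU and PLAUR, and MMP1, MMP2, MMP3 and TIMP2 had no match. The 250 bases before the start site of TIMP1 and TIMP3 are shown because both genes rose and both windows hold the GC box GGGCGG or its reverse CCGCCC, in capitals, the site of SP1-family factors. The windows are chrX:47582186-47582435 and chr22:32801455-32801704, plus strand, GRCh38.p14, and are printed 5′ to 3′.
TIMP1: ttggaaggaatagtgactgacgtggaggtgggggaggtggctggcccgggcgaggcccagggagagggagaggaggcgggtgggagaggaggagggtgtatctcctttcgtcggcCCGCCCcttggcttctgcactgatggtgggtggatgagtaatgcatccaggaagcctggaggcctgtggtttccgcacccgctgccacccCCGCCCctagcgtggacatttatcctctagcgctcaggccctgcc
TIMP3: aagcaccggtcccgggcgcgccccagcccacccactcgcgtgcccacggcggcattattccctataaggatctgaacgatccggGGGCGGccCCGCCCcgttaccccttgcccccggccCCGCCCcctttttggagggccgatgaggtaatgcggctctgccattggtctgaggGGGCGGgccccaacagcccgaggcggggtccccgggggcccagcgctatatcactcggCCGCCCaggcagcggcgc
TIMP1 has 2 matches, at −135 and −45 from the start site, and TIMP3 has 5, at −166, −158, −131, −76 and −18. Of 35116 promoters of this length 42.64% hold the motif on either strand, so that a match is common. TIMP3's window is 72.4% G or C and TIMP1's 64.8%, with a median of 58.0% over all promoters.

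PLAU, which encodes the secreted protease urokinase, was at 1111, 1080.5 and 1116 CPM in siControl and at 2769, 2744 and 2879 CPM in siPVT1. The libraries of each group lay close together, with coefficients of variation of 1.75% and 2.56%, and the groups were far apart. The means were 1103 ± 19.3 and 2797 ± 71.7 CPM (SD, n = 3 each). The log2 fold change was 1.34 (SE 0.0537, 95% interval 1.22 to 1.47, adjusted p = 1.19e-06). Leaving out any 1 library gave 1.31 to 1.35. PLAU lies on chromosome 10 at 73909177-73917496, plus strand (GRCh38). It shares 915 of 2949 exonic bases with the antisense gene C10orf55, which had 91 to 140 counts per library (log2 fold change 0.23, adjusted p = 0.211). The strand setting of the counting is not given in the sources used here, and reads in the shared bases cannot be told apart without it.

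PLAUR encodes the receptor that holds urokinase at the cell surface. It was at 226, 217 and 228 CPM in siControl and at 151, 154 and 174.5 CPM in siPVT1. All siPVT1 libraries were below all siControl libraries, opposite in direction to PLAU. PLAUR fell by 0.49 on the log2 scale (SE 0.0698, 95% interval −0.65 to −0.32, adjusted p = 0.000507). PLAUR lies on chromosome 19 at 43646095-43670547, minus strand (GRCh38).

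The 250 bases before the start sites of PLAU and PLAUR are shown because the genes moved in opposite directions and differ in the motifs searched. The windows are chr10:73910882-73911131, plus strand, and chr19:43670170-43670419, minus strand (RefSeq, GRCh38.p14), printed 5′ to 3′ with the GC box GGGCGG in capitals in PLAU and the AP-1 motif TGAGTCA in capitals in PLAUR.
PLAU: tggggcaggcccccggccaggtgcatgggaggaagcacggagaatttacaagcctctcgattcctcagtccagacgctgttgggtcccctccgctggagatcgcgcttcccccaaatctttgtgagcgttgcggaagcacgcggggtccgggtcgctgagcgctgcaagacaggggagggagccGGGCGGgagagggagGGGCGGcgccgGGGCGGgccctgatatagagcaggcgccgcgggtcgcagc
PLAUR: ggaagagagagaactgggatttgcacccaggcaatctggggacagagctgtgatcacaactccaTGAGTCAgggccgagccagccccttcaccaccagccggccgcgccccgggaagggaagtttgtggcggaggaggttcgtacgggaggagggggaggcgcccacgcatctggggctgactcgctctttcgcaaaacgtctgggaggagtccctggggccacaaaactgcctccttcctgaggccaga
PLAU has the GC box at −66, −51 and −40 and no AP-1 match in this window. Another RefSeq start site of PLAU lies at −522 from the canonical start used here. Its window, chr10:73910360-73910609, is 46.8% G or C and holds none of the motifs searched, so the contrast with PLAUR depends on the window. PLAUR has the AP-1 motif at −186 and no GC box, and 4.2% of the 35116 promoters hold TGAGTCA or its reverse TGACTCA. MMP14 has a GC box at −66, and no matched window of these genes holds the TATA box TATAAA or its reverse TTTATA, which 10.72% of all promoters hold.

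AP-1 is a dimer of FOS and JUN family proteins that binds TGAGTCA. Of the 7 AP-1 subunits 3 rose and 3 fell, which is 85.7% against 57.9% of all genes. Past both thresholds were 2, as lower, which is 28.6% against 21.5% of all genes in either direction and 9.64% as lower. FOSB was at 60.4, 62.0 and 61.4 CPM in siControl and at 2.72, 2.32 and 2.66 CPM in siPVT1 (log2 fold change −4.58, adjusted p = 1.31e-07), and FOS was at 23.5 to 24.6 CPM and 4.74 to 6.22 CPM (−2.15, adjusted p = 2.82e-06). JUN fell (−0.49), FOSL2 (0.85) and JUNB (0.67) rose, and JUND was at −0.081 (adjusted p = 0.618). FOSL1, the most abundant of the list in CPM, rose by 0.23 (adjusted p = 0.0192), a call lost with scaling by total counts (0.076) and without any 1 of 4 libraries. The median over the list was −0.081.

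**Figure D2:**
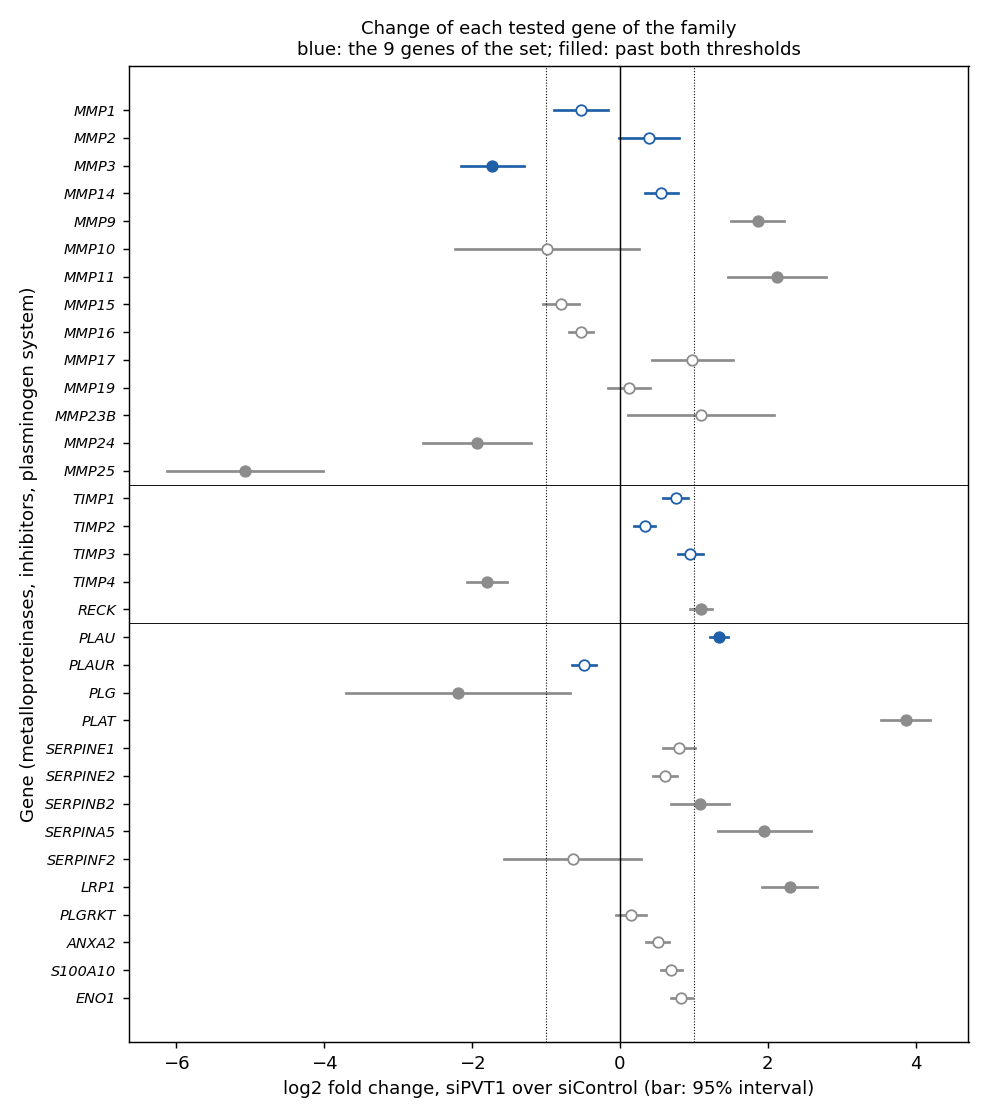
Log2 fold change of siPVT1 against siControl for the tested genes of the metalloproteinase, inhibitor and plasminogen system lists. The 9 genes are in blue, and filled points passed both thresholds. Bars are 95% intervals from edgeR, with lines at 0 and at the fold threshold of 1. Of the 9 genes, PLAU lies above the threshold with its whole interval, MMP3 lies below −1, the interval of TIMP3 crosses 1 and that of MMP2 crosses 0.

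Levels were compared between genes as CPM per kilobase of canonical transcript. In siControl the order was PLAU (471 CPM per kb), MMP14 (224), PLAUR (164), TIMP2 (92.9), TIMP1 (82.8), MMP2 (20.1), TIMP3 (15.2), MMP1 (6.96) and MMP3 (2.09), and no neighbours in this order overlapped between libraries. In siPVT1 the order was PLAU (1194 CPM per kb), MMP14 (330.2), TIMP1 (139.7), TIMP2 (117), PLAUR (117), TIMP3 (29.5), MMP2 (26.4), MMP1 (4.83) and MMP3 (0.634). PLAUR thus moved from the third place to the fifth. TIMP2 and PLAUR overlapped in siPVT1 (111 to 126 and 110 to 128 CPM per kb), as did TIMP3 and MMP2 (26.9 to 32.2 and 19.0 to 33.6 CPM per kb). The 9 genes took 0.283% to 0.289% of all counts in siControl and 0.453% to 0.486% in siPVT1.

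Ratios of gene pairs within a library do not depend on the scaling between libraries, and 6 pairs are given here, compared by a two-sided exact permutation test, for which 3 libraries against 3 allow no p below 0.1. The log2 count ratio of PLAUR to PLAU was −2.30, −2.32 and −2.29 in siControl and −4.20, −4.16 and −4.04 in siPVT1, a difference of −1.83. The ratio of MMP3 to TIMP1 was −3.83, −4.26 and −4.13 in siControl and −6.55, −6.49 and −6.57 in siPVT1, a difference of −2.46. The ratio of MMP1 to TIMP1 differed by −1.30. MMP1 and MMP3 were thus lower relative to TIMP1, and PLAUR lower relative to PLAU, in every siPVT1 library than in any siControl library.

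The ratio of MMP14 to TIMP2 was higher by 0.22, and that of TIMP1 to TIMP3 differed by −0.20. These 5 pairs had separate groups and an exact permutation p = 0.1, the smallest possible (adjusted p = 0.117 over 7 pairs tested), which does not pass a threshold of 0.05. For MMP2 to TIMP2 the ratio was −2.27, −2.24 and −2.29 in siControl and −1.96, −2.18 and −2.60 in siPVT1. Its groups overlapped, with a difference of 0.018 and an exact permutation p = 1.

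**Figure D3:**
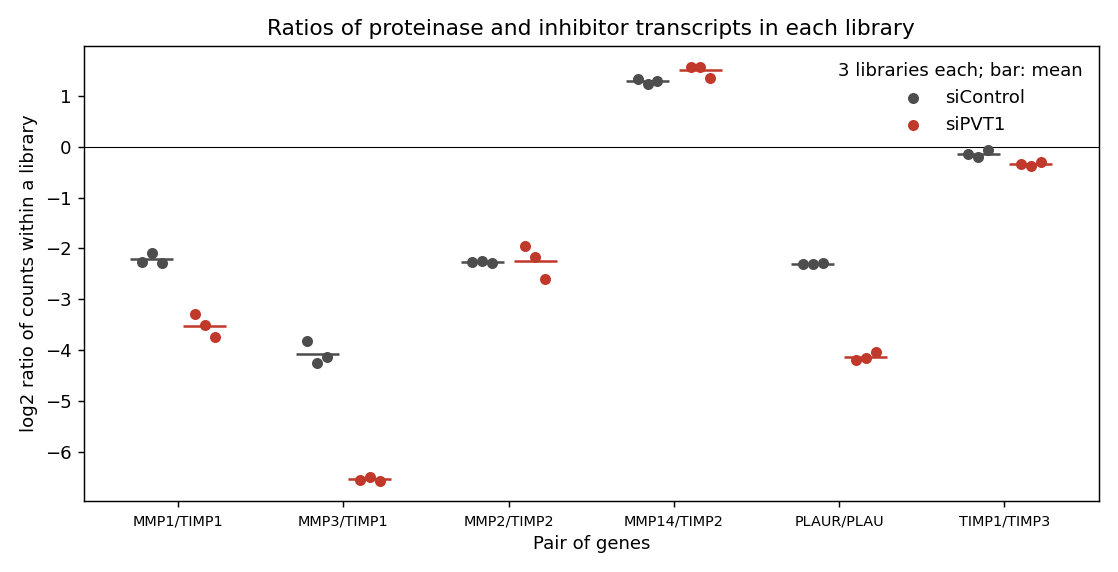
Log2 ratio of the counts of 6 gene pairs within each library, with 1 point per library and group means as bars. The groups are separate for 5 pairs and overlap for MMP2 to TIMP2, where the siPVT1 libraries run from −2.60 to −1.96.

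Of the other 19 metalloproteinase genes 10 were tested, and 3 rose and 4 fell (70%, against 57.9% of all genes). Past both thresholds were 4 of the 10 (40%, against 21.5% of all genes). This share includes MMP25, whose limit is given below. MMP9, or gelatinase B, was at 9.91, 9.61 and 9.38 CPM in siControl and at 42.1, 36.3 and 27.0 CPM in siPVT1 (log2 fold change 1.86, SE 0.156, adjusted p = 2.84e-05). MMP11, or stromelysin-3, had 12 to 18 counts per siControl library and 51 to 75 per siPVT1 library (2.13, adjusted p = 0.000373). MMP25, a membrane-anchored enzyme, had 81, 91 and 96 counts in siControl and 4, 0 and 3 in siPVT1 (adjusted p = 4.24e-05). It passed the filter through siControl alone, was not tested where a siControl library was left out, and at so few siPVT1 counts its fold is not given. MMP24, with 26 to 35 counts per siControl library and 5 to 9 per siPVT1 library, fell by 1.93 (adjusted p = 0.00107). MMP16, a membrane-type enzyme and the most abundant of the list in CPM, was at 103 to 107.5 CPM in siControl and 67.5 to 79.4 CPM in siPVT1 (−0.53, adjusted p = 0.000409). MMP17 rose by 0.98 and MMP15 fell by 0.80. MMP19 (0.13), MMP10 and MMP23B (1.10, adjusted p = 0.0558) did not pass, and MMP23B, whose near-identical copy MMP23A can share its reads, is uncertain. MMP26 was at 0 in every library. The median log2 fold change of the 10 was −0.20.

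The 2 other inhibitors moved in opposite directions, and both passed both thresholds. TIMP4 was at 8.47, 9.05 and 9.56 CPM in siControl and at 2.47, 2.91 and 2.41 CPM in siPVT1 (log2 fold change −1.80, adjusted p = 8.93e-06), opposite to the other TIMP genes. It lies within SYN2, with 170 of 1194 exonic bases shared. SYN2 had 8, 15 and 13 counts in siControl and 4, 0 and 5 in siPVT1, and passed both thresholds as lower (adjusted p = 0.0427 from edgeR). SYN2 met the filter on low counts through siControl alone. RECK, a membrane-anchored inhibitor of several metalloproteinases, was at 18.9, 19.2 and 20.1 CPM in siControl and at 40.7, 41.6 and 42.5 CPM in siPVT1 (1.10, adjusted p = 5.66e-06).

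Of the 13 other genes of the plasminogen system 12 were tested, 9 rose and 1 fell, which is 83.3% against 57.9% of all genes, with a median log2 fold change of 0.75. PLAT, the tissue plasminogen activator, was at 18.2, 17.8 and 17.9 CPM in siControl and at 313, 263 and 211 CPM in siPVT1, a fold of 14.6 (log2 fold change 3.87, SE 0.144, adjusted p = 8.6e-07). LRP1, a receptor that clears complexes of activators and inhibitors, was at 79.5 to 85.2 CPM and 308 to 501 CPM (2.30, adjusted p = 1.15e-05). Both activator genes thus rose, PLAT from a siControl level of 5.86 CPM per kb and PLAU from 471.

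Among inhibitor genes SERPINE2 rose under the fold threshold (0.61, adjusted p = 0.000138), SERPINA5 (1.95) and SERPINB2 (1.08, past both thresholds in 9 of 12 alternatives) rose past it, and SERPINF2, the gene of the plasmin inhibitor, was at −0.64 (adjusted p = 0.209). The plasminogen-binding proteins ANXA2 (0.51), S100A10 (0.70) and ENO1 (0.83) rose, and ENO1, an enzyme of glycolysis, and ANXA2 were the most abundant of the list. PLGRKT, a plasminogen receptor, was at 0.15 (adjusted p = 0.195). PLG, which encodes plasminogen itself, had 19, 9 and 18 counts in siControl and 0, 5 and 4 in siPVT1 (adjusted p = 0.0205), a call lost without siControl replicate 1 (adjusted p = 0.0647) or 3 (adjusted p = 0.0581). PLG met the filter on low counts through siControl, as of the siPVT1 libraries only replicate 2 reached it. Another filter left PLG out. VTN had 1 count in all.

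The siPVT1 libraries differed from each other more than the siControl libraries did. The coefficient of variation was larger in siPVT1 for each of the 9 genes other than MMP3 (16.9% in siControl and 8.47% in siPVT1). siPVT1 replicate 3 was the library nearest to the siControl mean for 6 of the 9 genes, MMP2, MMP14, TIMP1, TIMP2, TIMP3 and PLAUR. Replicate 1 was the nearest for MMP1 and MMP3, and replicate 2 for PLAU. By the median absolute log2 distance over the 9 genes replicate 2 was the nearest, at 0.61, with replicate 3 at 0.66 and replicate 1 at 0.74. PVT1 was at 66.3 CPM in replicate 3, close to the 67.8 CPM of replicate 2, and at 75.5 CPM in replicate 1.

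**Figure D4:**
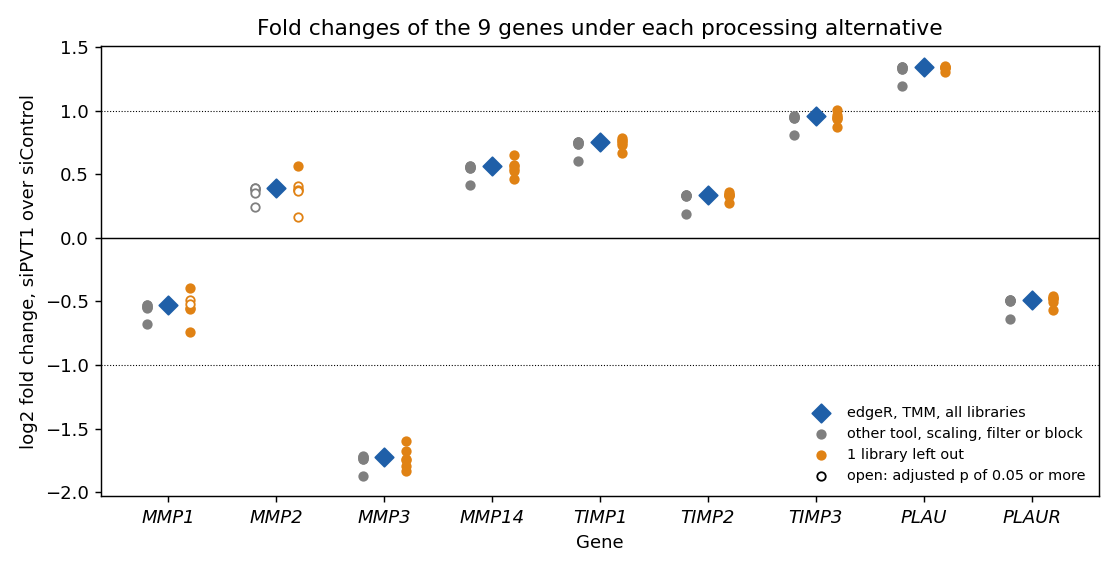
Log2 fold change of each of the 9 genes under the main analysis and 12 alternatives, including the removal of each library in turn. No gene changes sign, PLAU runs from 1.19 to 1.35, and MMP2 has a wide range for its size, from 0.16 to 0.57.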

How the data were processed

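Messenger RNA libraries from SK-OV3 cells, 3 siControl and 3 siPVT1, were sequenced. Per the labels and the study's methods, the authors aligned reads to GENCODE v35 transcripts (GRCh38.p13) with STAR 2.7.3a and counted them with Salmon 0.14.1, and deposited estimated counts per gene for each library, which were rounded to whole numbers here. The submitters' processing notes also name bcl2fastq 2.20.0 and DESeq2 1.28.1. The strand setting is not given in the sources used here. No column was left unused.

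The test took in genes that reached 5 normalized counts in 3 or more libraries and was run with edgeR 4.0.16 (R 4.3.3), using TMM scaling, the quasi-likelihood test over all 6 libraries and Benjamini-Hochberg adjustment over 19008 genes. 25268 genes had no count. The standard error is the absolute log2 fold change over the square root of F. The fit was also run on counts simulated with its own estimated spread, equal in both groups. Such counts cannot check it for the larger spread of the siPVT1 libraries. Alternatives were DESeq2 1.42.0, its size factors, scaling by total counts, other filters, a replicate block, a test against a 2-fold change and leaving out each library. Depth limits genes of few counts, and the limit of 3 counts for a count of 0 covers counting error only. Positions are from GENCODE v44 (GRCh38). Promoters are from RefSeq (GRCh38.p14).

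The 9 genes and all lists were chosen with earlier results of these data known. Genes named are the 9, PVT1, list members past both thresholds, most abundant or at 0, and the gene most like each of the 9 past both thresholds. Others named were chosen after their values were seen. 1 listed gene, still counted in its list's totals, and 1 gene pair are not reported here.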

Additional observations from a re-analysis of the deposited data

How the results depend on the processing

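Of 108 values of the 9 genes under 12 alternatives, 104 kept their direction and side of the adjusted p threshold, 2 (MMP1) lost the call, 2 (MMP2) gained it and 0 turned. The number past both thresholds stayed at 2, apart from 3 without siPVT1 replicate 3, and leaving out 1 library gave 2 to 3. The number with an adjusted p under 0.05 ranged from 7 to 9. Against a 2-fold change 2 of the 9 genes passed, and 1976 of all genes in place of 4081. With total counts, 43.8% of calls were higher in place of 55.1%. No pairing by replicate number was seen. Deviations from the group mean correlated at −0.041, 0.0378 and 0.00366 for like numbers and at −0.0545 to 0.0608 for unlike ones. Such values cannot show whether libraries of the same number were handled together. With replicate numbers as a replicate block 2 of the 9 genes passed both thresholds and 8 the adjusted p, with 3924 genes past both. Among other genes, with total counts MMP19 turned from 0.13 to −0.023 and PLGRKT from 0.15 to −0.0022, and with 1 library left out MMP19 ranged from −0.0083 to 0.19 and JUND, at −0.081 with all libraries, from −0.20 to 0.022. The log2 ratio difference of MMP2 to TIMP2 ranged from −0.13 to 0.20 when 1 library was left out, around 0.018. The cause of these changes was not tested.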

Other observations

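Other protease families were counted in the same way. Of 14 ADAM and ADAMTS genes, which encode shedding enzymes and proteoglycan-cutting proteases, 13 were tested, 9 rose and 3 fell (92.3%, against 57.9% of all genes), with a median log2 fold change of 0.67. Past both thresholds were 30.8% of those tested, against 21.5% of all genes. ADAM8 was at 13.5, 12.6 and 13.5 CPM in siControl and at 75.6, 62.2 and 42.9 CPM in siPVT1 (2.19, adjusted p = 3.45e-05). ADAMTS12 (1.42) also rose past both thresholds, as did ADAMTS9 with a fold of 2.83, and ADAMTS5, an aggrecanase, fell past both (−1.17). ADAM10 (0.85) and ADAM17 (0.53), the main sheddases, rose, and ADAM19 (0.47) was the most abundant of the list in CPM. ADAM28 (0.73, adjusted p = 0.382) passed without siControl replicate 2 (2.04, adjusted p = 0.0175).

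Of 15 cathepsins and cystatins, lysosomal proteases and their inhibitors, 12 were tested, 8 rose and 3 fell (91.7%, against 57.9% of all genes), with a median log2 fold change of 0.42. Past both thresholds were 16.7% of those tested, below the 21.5% of all genes. CTSS was at 36.9, 35.2 and 36.2 CPM in siControl and at 107.1, 109.4 and 113.5 CPM in siPVT1 (1.61, adjusted p = 7.92e-07), and CTSK rose by 1.28. CTSB, the most abundant in CPM, rose by 0.54, and CTSD (−0.81) and CTSZ (−0.56) fell. The calls of CTSC (−0.23), CTSH (0.82) and CST3 (0.29) were each lost when 1 of several libraries was left out, with adjusted p up to 0.101, 0.0686 and 0.0511, and with scaling by total counts those of CST3 (adjusted p = 0.137) and CTSL (0.29, adjusted p = 0.0828) were lost.

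The gene most like PLAU over the 6 libraries was ARID3A (Pearson r = 0.9998 of log2 CPM), and the one most like MMP3 was RGS20 (r = 0.9996). With 2 groups of libraries such values are common: 831 genes had an r over 0.99 with PLAU and 158 with MMP3.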
